A study of Mus musculus with 15 samples.

Results

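Hearts of mice given isoproterenol for 8 days were compared with hearts of mice given saline. All 7 libraries labelled with either treatment were taken (8-day A to C, n = 3, and saline A to D, n = 4), of 15 libraries in the series. Every mouse was a C57BL6 male of 12 weeks, and the 8-day group received 50 mg/kg/day of isoproterenol subcutaneously for 8 days. The saline group received saline for a similar period, and no mouse carried a transgene or a deletion. A further replicate of the 8-day group had been excluded by the study for quality, and RNA came from a small frozen piece of each heart, which the study calls ventricular, and the part of the ventricle is not given in the sources used here. Each library is 1 heart, so the spread between libraries includes the spread between mice.

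Isoproterenol is a synthetic catecholamine that activates β-adrenergic receptors of the heart muscle. These receptors couple through a stimulatory G protein to adenylyl cyclase, which makes the second messenger cAMP, and protein kinase A then phosphorylates calcium channels and sarcoplasmic reticulum proteins so that the heart beats faster and harder. Sustained stimulation is known to lead to enlargement of heart muscle cells, deposition of collagen by fibroblasts and a reduced use of fatty acids as fuel, and it is used in mice as a model of cardiac remodeling.

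The libraries were made from total RNA without a selection for messenger RNA, and held 25404075 to 46582810 expected counts in the 8-day group and 28889437 to 117776929 in the saline group. Between 49.6 and 55.9% of the counts in the 8-day group and 51.2 and 58.4% in saline fell on mitochondrial transcripts. The library 8-day A stood apart: CT010467.1, annotated as a ribosomal RNA gene, and Lars2, which charges mitochondrial tRNA with leucine, together took 15.8% of its counts, against 0.0438 to 0.0582% in 8-day B and C and 0.018 to 0.0679% in saline. Markers of heart muscle cells, most of them shared by atrium and ventricle, were the most abundant of the 14 cell type marker lists in every library, with 28709 to 32502 CPM summed over 10 markers in the 8-day group and 31063 to 36912 CPM in saline. The atrial markers Sln and Bmp10 were at or near 0, and the atrial list as a whole summed to 70.4 to 221 CPM at 8 days and 69.4 to 77.6 CPM in saline. Nppa, also a gene of the fetal program described below, made up 59.7 of 110 CPM in 8-day A and 183 of 221 CPM in 8-day C. In saline Nppa stood at 5.21 to 33.7 CPM. For bulk tissue such as this, fewer cells of a type and less RNA per cell cannot be told apart.

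Levels are given in CPM, the counts of a gene relative to the total of its library, scaled by TMM, which equalises the bulk of genes between libraries, and differences as the log2 fold change of 8-day over saline with its standard error (SE). Of 26864 genes with at least 10 counts summed over the 15 libraries, 288 were higher and 322 lower at 8 days at an adjusted p under 0.05 from edgeR's quasi-likelihood test (two-sided), which is 1.07% and 1.20% of the genes tested. At an unadjusted p under 0.05 there were 3490. Of the called genes 105 rose and 90 fell by at least 2-fold. The 3 treated libraries all lay above the 4 saline libraries for 6.50% of the genes tested and all below for 6.37%, and 275 of the 288 higher and 319 of the 322 lower genes were among them. Most called genes coded for proteins (266 higher and 272 lower), and 16 higher and 29 lower genes were long noncoding RNAs (lncRNAs). Over all genes tested the median log2 fold change was −0.013. Scaling by library size alone, which counts the mitochondrial ribosomal RNA and the CT010467.1 and Lars2 reads of 8-day A, moved that median to −0.103 and left 167 higher and 281 lower genes.

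Removing 8-day A kept the direction of 607 of the 610 called genes and the call of 335, with 160 higher and 213 lower genes called in all. Removing 8-day C left 127 higher and 131 lower genes, and 244 of the 610 calls. In total 200 of the 610 calls were made in each of the 7 fits that left out a library. CT010467.1 and Lars2 themselves passed the threshold through 8-day A: CT010467.1 stood at 150718 CPM there against 151 to 527 CPM in saline and 306 and 488 CPM in the other treated hearts. Lars2 stood at 59551 CPM in 8-day A, at 54.1 to 144 CPM in saline, and at 90.9 and 63.7 CPM in 8-day B and C. Without 8-day A their adjusted p was 0.987 and 0.719, and Lars2 changed sign to −0.32 in log2 units. Another 3 transcripts, Mir6236, Gm24924 and Gm15564, were called for the same library, in which each was over 10 times the level of 8-day B and C. The plot of fold changes with and without 8-day A shows these 5 genes farthest from the diagonal. Of the other called genes only Gm49317 (−4.35 with and −6.78 without 8-day A) and Gm10727 (−2.43 and −3.46) moved by more than 1 log2 unit.

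**Figure D1:**
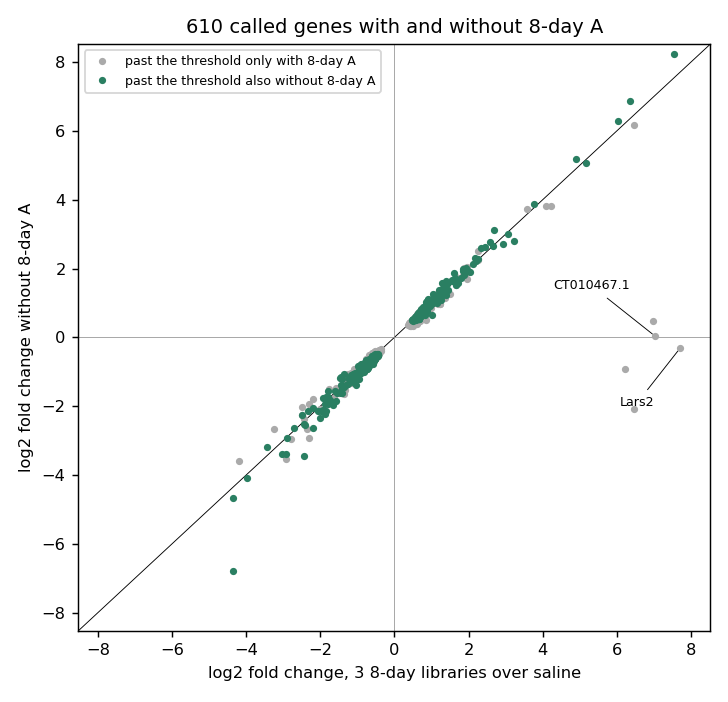
Log2 fold change of each of the 610 called genes (points) over saline with all 3 8-day libraries (x axis) and without 8-day A (y axis). Green points passed the adjusted p threshold of 0.05 in both fits (335 genes) and grey points only with 8-day A. The line marks equal values, and 5 genes at the lower right, CT010467.1 and Lars2 among them, leave it.

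The leading genes were those called without overlap between groups and with a mean of 5 CPM or more on the higher side, namely the 15 with the strongest rise and the 15 with the strongest fall. Mt2, a metallothionein that binds zinc and copper, led the higher genes and stood at 1.43, 3.16, 0.992 and 1.46 CPM in saline A to D and 16.3, 11.2 and 10.9 CPM in 8-day A to C. It rose by 2.93 log2 units (SE 0.29, adjusted p = 0.000192). All treated hearts were above all saline hearts by a wide gap. Serpina3n, a serpin released from cells that blocks serine proteases, rose by 2.2 log2 units (SE 0.18, adjusted p = 6.52e-05), from 1.6 to 2.88 CPM in saline to 8.11 to 11.8 CPM. Ahnak2, a giant relative of the scaffold protein Ahnak, stood at 8.25, 12.7, 7.59 and 8.72 CPM in saline A to D and 43, 25.1 and 45.1 CPM in 8-day A to C. It rose by 2.03 log2 units (SE 0.20, adjusted p = 0.000192). Prg4, which codes for the lubricating glycoprotein lubricin, and Itgbl1, a secreted integrin-like protein, were higher in each treated heart and had log2 fold changes of 1.88 and 1.56 (SE 0.27 and 0.25). Among the lowest genes Tuba4a, an α-tubulin, stood at 247, 150, 223 and 237 CPM in saline A to D and 64.6, 59.6 and 52.6 CPM in 8-day A to C, and it fell by 1.86 log2 units (SE 0.16, adjusted p = 6.52e-05). Mylk4, of the family of myosin light chain kinases, stood at 74.8, 97, 112 and 122 CPM in saline A to D and 26.1, 39.7 and 21.9 CPM in 8-day A to C. Lgals4, a galectin, stood at 16.8, 9.21, 26.5 and 15.5 CPM in saline A to D and 5.06, 3.96 and 3.96 CPM in 8-day A to C and fell by 1.99 log2 units (SE 0.27, adjusted p = 0.002). The plot of leading genes by library shows no overlap for any of them, which their rule required. With robust estimation of the dispersions, in which a gene of unusual spread is not drawn toward the others, 343 genes were higher and 392 lower in all, but 19 of these 30 lost their call, Cenpf, Lgals4, Prg4, Ankrd1 and Itgbl1 among them.

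**Figure D2:**
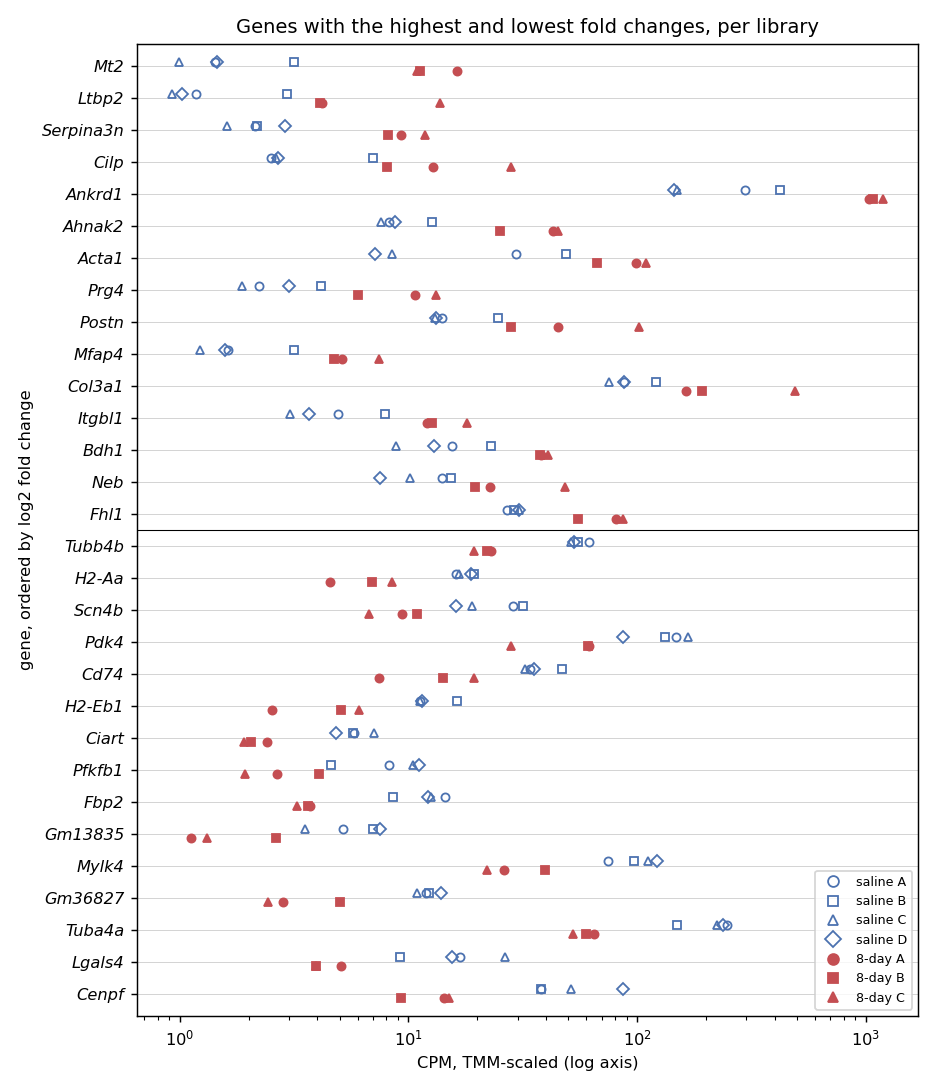
CPM (log axis) of the 30 leading genes in each library, ordered by log2 fold change, with the 15 highest above the line and the 15 lowest below it. Open blue marks are saline hearts, filled red marks 8-day hearts, and marker shape gives the replicate letter. For each gene the red marks lie on 1 side of all blue marks, and Mt2 and Cenpf are at the extremes.

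Fatty acid oxidation, the main source of energy of the adult heart, was the list with the most lower genes: 17 of 41 tested genes fell and 0 rose, with a median log2 fold change of −0.46 over the list. By role these were 4 of 5 genes of entry into mitochondria, 11 of 25 of oxidation itself and 2 of 11 of uptake. Ech1, a dienoyl-CoA isomerase of mitochondria and peroxisomes, stood at 348, 238, 349 and 381 CPM in saline A to D and 175, 157 and 130 CPM in 8-day A to C, and it fell by 1.1 log2 units (SE 0.15, adjusted p = 0.00224). Every treated heart was below every saline heart. Cpt2, which releases acyl groups from carnitine inside mitochondria, fell by 0.77 log2 units (SE 0.11, adjusted p = 0.00217), from 62 to 78.5 to 39.4 to 45.9 CPM. Hadha, a subunit of the trifunctional protein that runs several steps of long-chain oxidation, was at 648, 478, 554 and 645 CPM in saline A to D and 328, 344 and 328 CPM in 8-day A to C, and it fell by 0.8 log2 units (SE 0.12, adjusted p = 0.00318). Decr1, which handles double bonds of unsaturated acyl-CoA, fell by 0.86 log2 units (SE 0.14, adjusted p = 0.00432). The 17 called genes included scarce and abundant messages: Cpt1a, a carnitine acyltransferase of the outer membrane, stood at 26.1 to 41.7 CPM in saline and 18.9 to 23.7 CPM at 8 days, and Fabp3, the fatty acid-binding protein of heart muscle, at 685 to 906 and 412 to 550 CPM. Cpt1a lost its call without saline A (0.0611), 8-day B (0.0687) or 8-day C (0.12), and Fabp3 without 8-day B (0.0521) or 8-day C (0.0536). In 28 of the 41 genes all treated hearts were below all saline hearts, against 6.37% of all genes. Without 8-day A 13 genes of the list were called lower, without 8-day C 6, and under library size alone 9. Without saline B, the library whose level of this list was nearest to the treated hearts (−0.18 against −0.02 to 0.11 in the other saline hearts and −0.48 to −0.36 at 8 days), 24 were.

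Of 13 known targets of the fatty acid-sensing PPAR receptors 7 fell and 0 rose, with a median of −0.88. Of 15 genes listed as regulators (the receptors, their cofactors and related genes) 1 fell. That gene was Mlycd (−0.735 in log2 units), which codes for an enzyme, malonyl-CoA decarboxylase, and not for a receptor or cofactor. Plin5, which coats lipid droplets next to mitochondria, stood at 38.6, 29.2, 34.2 and 38.6 CPM in saline A to D and 15.7, 17.7 and 15.8 CPM in 8-day A to C and fell by 1.1 log2 units (SE 0.12, adjusted p = 0.000309). Acot1 and Acot2, acyl-CoA thioesterases of the cytosol and the mitochondrion that are close in sequence, fell by 1.87 and 0.96 (SE 0.29 and 0.14), and the split of reads between them is uncertain. Pdk4, the kinase that shuts off pyruvate dehydrogenase during fatty acid use, was at 149, 133, 168 and 86.4 CPM in saline A to D and 61.3, 60.8 and 28.1 CPM in 8-day A to C, and it fell by 1.42 log2 units (SE 0.25, adjusted p = 0.00838), although its call was lost with robust dispersions. Of 16 genes of lipid droplets 5 fell and 1 rose, and of 14 genes of fatty acid synthesis 1 fell. Scd4, a stearoyl-CoA desaturase of heart, stood at 4.24, 3, 4.5 and 2.33 CPM in saline A to D and 0.486, 0.784 and 0.416 CPM in 8-day A to C, and it fell by 2.7 log2 units (SE 0.29, adjusted p = 0.000326) on 14 to 20 counts per treated library. Gpam and Agpat3, which add acyl groups to glycerol phosphate and to acylglycerol phosphate, fell by 0.7 and 0.73 (adjusted p = 0.00288 and 0.00252). Fitm2, which forms lipid droplets, fell by 0.56 (adjusted p = 0.00539), but was not called under library size alone.

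Genes of glucose use moved in both directions, 4 of 48 higher and 3 lower, with a median of 0.00. Pfkfb2, the heart form of the enzyme that makes the glycolytic activator fructose-2,6-bisphosphate, stood at 43.8, 53, 40.6 and 49.4 CPM in saline A to D and 88.9, 104 and 91.2 CPM in 8-day A to C, and it rose by 1.02 log2 units (SE 0.11, adjusted p = 0.000326). Its relative of liver and muscle, Pfkfb1, stood at 8.25, 4.59, 10.5 and 11.1 CPM in saline A to D and 2.66, 4.08 and 1.93 CPM in 8-day A to C and fell by 1.6 log2 units (SE 0.29, adjusted p = 0.00875), with an adjusted p of 0.0548 without 8-day C. Fbp2, the fructose-bisphosphatase of muscle, which opposes glycolysis, fell from 8.58 to 14.4 to 3.24 to 3.71 CPM. Phka1, a regulatory subunit of the muscle kinase that starts glycogen breakdown, rose by 0.6 log2 units (SE 0.085, adjusted p = 0.00242). Bdh1, a ketone body dehydrogenase, was at 15.5, 23, 8.83 and 13 CPM in saline A to D and 37.8, 37.7 and 40.7 CPM in 8-day A to C, and it rose by 1.37 log2 units (SE 0.22, adjusted p = 0.0049). Of 46 nuclear genes of the respiratory chain 0 were called by edgeR, with a median of −0.18. At an unadjusted p under 0.05 there were 10 lower ones, DESeq2 called 3 lower and limma voom 1. The smallest p of that list belonged to Atp5g3, a subunit of ATP synthase, with a log2 fold change of −0.39 (SE 0.11, adjusted p = 0.0832). Of 23 tested transcripts of the mitochondrial genome 0 were called by edgeR, DESeq2 or limma voom, with 1 lower at an unadjusted p under 0.05 (median −0.06). Slc6a8, the creatine transporter, rose by 0.57 log2 units (SE 0.086, adjusted p = 0.00367), from 52.4 to 57.3 to 78.2 to 84.6 CPM. The calls of Phka1 and Slc6a8 were lost under library size alone, and those of Pdk4, Bdh1 and Pfkfb1 with robust dispersions.

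**Figure D3:**
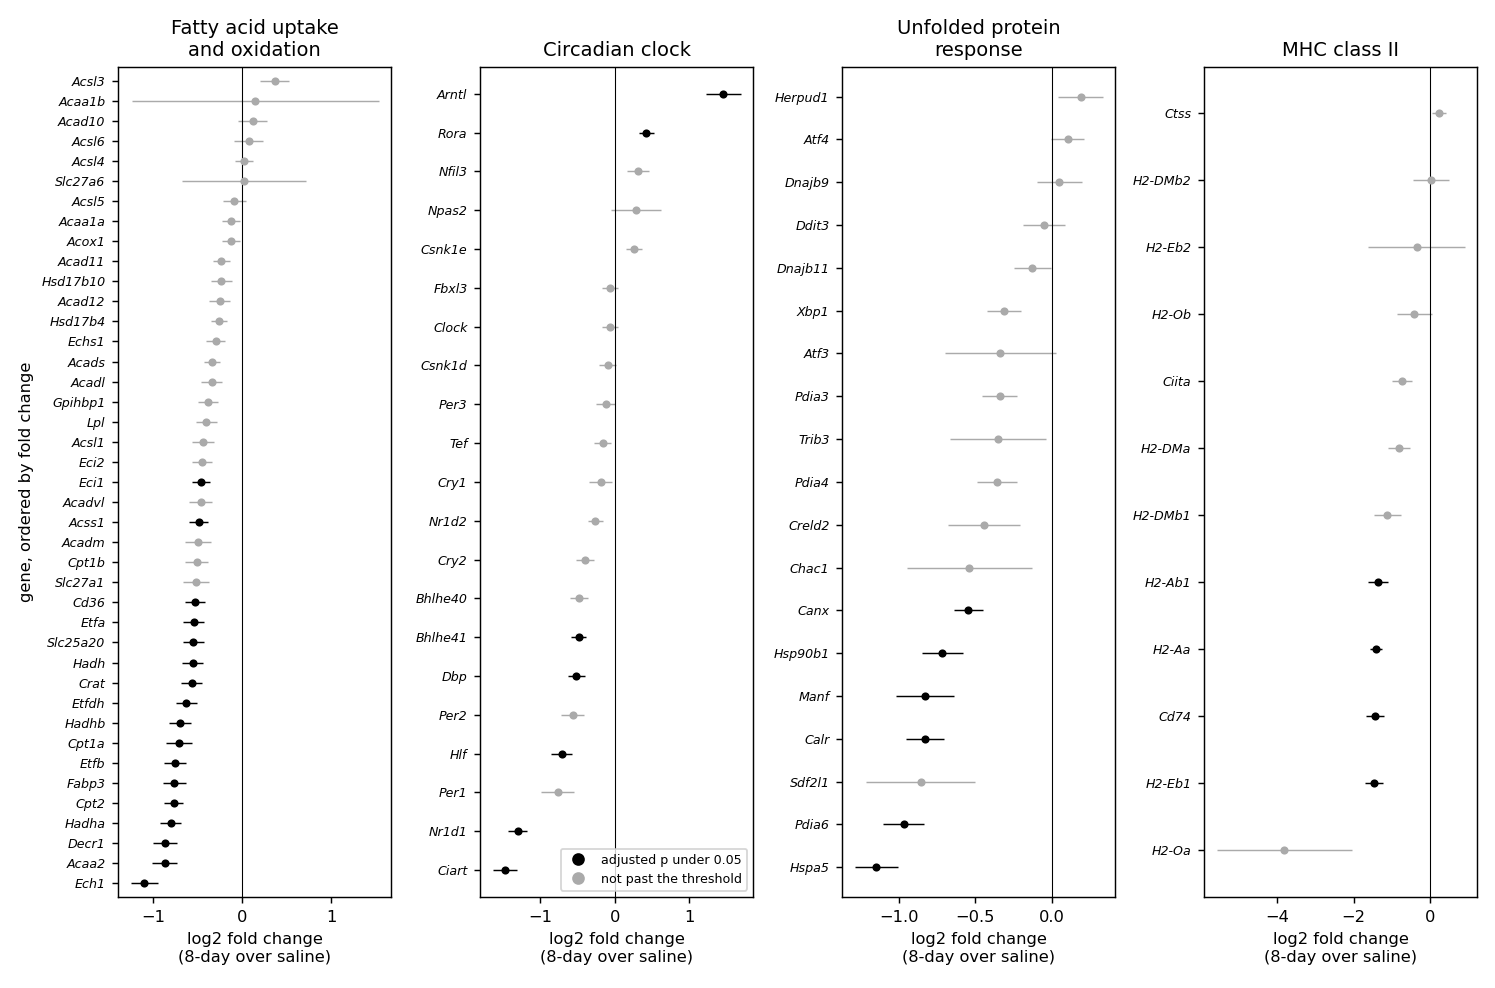
Log2 fold change of 8-day over saline (points) with its SE (bars) for the tested genes of 4 lists: fatty acid uptake and oxidation (41 genes), circadian clock (21 of 22), the unfolded protein response (19) and MHC class II presentation (12). Black points passed the adjusted p threshold of 0.05 and grey ones did not. The black points of the fatty acid, unfolded protein response and class II panels all lie below 0, and those of the clock panel on both sides.

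Chaperones of the endoplasmic reticulum, the compartment in which secreted and membrane proteins fold, were lower: 6 of 19 genes of the unfolded protein response fell and 0 rose, with a median of −0.36. Hspa5, which codes for the Hsp70 chaperone BiP of this compartment, stood at 238, 238, 153 and 184 CPM in saline A to D and 94.4, 92.4 and 88.4 CPM in 8-day A to C. It fell by 1.15 log2 units (SE 0.14, adjusted p = 0.000989), and the treated hearts lay within a narrow range below the wider saline range. Calr, the calcium-binding lectin chaperone calreticulin, fell by 0.83 log2 units (SE 0.12, adjusted p = 0.00336), from 62.4 to 92 to 44 to 45.1 CPM. Its membrane-bound relative calnexin (Canx) was at 166 to 198 CPM in saline and 119 to 131 CPM at 8 days, with an adjusted p of 0.00812 that became 0.0602 without 8-day C. Pdia6, a disulfide isomerase, fell by 0.97 log2 units (SE 0.13, adjusted p = 0.00217). The transcription factors of the response did not pass the threshold: Atf4 had a log2 fold change of 0.1 and Xbp1 of −0.31 (adjusted p = 0.768 and 0.208). The level of the whole list of 39 genes overlapped between groups, since saline C lay at −0.27, as the mean of log2(CPM + 1) relative to saline, and the treated hearts at −0.27 to −0.20, while saline B was the highest at 0.45. Among 20 heat shock genes of the other compartments 2 rose and 1 fell. Hspb7, a small heat shock protein of heart muscle, rose by 0.68 log2 units (SE 0.12, adjusted p = 0.00803), from 349 to 432 to 551 to 733 CPM, and its call was lost under library size alone. Without 8-day C the list held 3 lower genes in place of 7.

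Tubulins, the subunits of microtubules, fell in 4 of 22 genes of their list and rose in 0 (median −0.24). Tubb4b, a β-tubulin, stood at 61.6, 55.3, 51.5 and 52.8 CPM in saline A to D and 23, 22.1 and 19.3 CPM in 8-day A to C, and it fell by 1.37 log2 units (SE 0.10, adjusted p = 6.08e-05). Tuba1b, an α-tubulin, stood at 58.7, 51, 60.4 and 55.8 CPM in saline A to D and 23, 23.5 and 25.8 CPM in 8-day A to C and fell by 1.23 log2 units (SE 0.099, adjusted p = 6.08e-05). These were among the smallest p-values of the comparison, and both held without each library in turn and under library size alone. Tubulin genes share long stretches of sequence, so that reads can be split unevenly between Tuba1a, Tuba1b and Tuba1c. Tuba1a fell by 0.5, with an adjusted p of 0.0824 without 8-day A and 0.0687 without 8-day B.

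The circadian clock is a loop in which Arntl (BMAL1) with Clock drives its own repressors, and in which the nuclear receptors REV-ERB (Nr1d1) and ROR set the level of Arntl through elements in its promoter. Of 22 clock genes 3 rose and 5 fell. Arntl stood at 0.788, 0.632, 0.516 and 0.473 CPM in saline A to D and 1.8, 1.61 and 1.61 CPM in 8-day A to C, and it rose by 1.46 log2 units (SE 0.24, adjusted p = 0.00533). It was higher in each of the 3 treated hearts. Nr1d1, which represses Arntl, stood at 23.4, 17.8, 24.4 and 18.8 CPM in saline A to D and 9.29, 7.72 and 8.69 CPM in 8-day A to C, and it fell by 1.3 log2 units (SE 0.13, adjusted p = 0.000204). Ciart, a repressor of the Arntl and Clock pair, was at 5.79, 5.75, 7.05 and 4.81 CPM in saline A to D and 2.4, 2.04 and 1.9 CPM in 8-day A to C, and it fell by 1.48 log2 units (SE 0.16, adjusted p = 0.000384). The treated hearts lay below all saline hearts for each of these repressors. The D-box factors Dbp and Hlf, which are outputs of the loop, fell by 0.51 and 0.71 (adjusted p = 0.0332 and 0.0188). Hlf lost its call without 8-day B (0.0748) or 8-day C (0.103), and Dbp in each left-out fit but that without saline B (0.0516 to 0.147). The core repressors Per1, Per2, Per3, Cry1 and Cry2 did not pass the threshold (log2 fold changes of −0.77, −0.56, −0.12, −0.19 and −0.39), although Per2 and Cry2 were below saline in each treated heart. The time of day at which hearts were taken is not given in the sources used here, and its part in these values was not tested. Without 8-day B, and without 8-day C, 2 clock genes were called lower and 2 higher. Rora, the RORα receptor, stood at 30.3, 31.1, 35.8 and 36.8 CPM in saline A to D and 49.4, 43.3 and 42.1 CPM in 8-day A to C and rose by 0.42 log2 units (adjusted p = 0.0486), and it lost its call when any library was left out (0.0509 without saline D to 0.21 without 8-day A).

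Because the clock genes act on each other through short promoter elements, the 250 bases before the start of Arntl and Ciart are shown, from the RefSeq promoter table on GRCm38.p6. In capitals are 2 stretches of Arntl that match loose ROR/REV-ERB letters (TNGGTCA, either strand). So are the 3 E-boxes of Ciart (CACGTG, the binding letters of the Arntl and Clock pair). The usual ROR/REV-ERB half-site has A or G before GGTCA, where the stretches of Arntl have T and C. They match only the loose letters. Arntl lies on the plus strand at chr7:113207215-113207464 and Ciart on the minus strand at chr3:95882229-95882478.
Arntl: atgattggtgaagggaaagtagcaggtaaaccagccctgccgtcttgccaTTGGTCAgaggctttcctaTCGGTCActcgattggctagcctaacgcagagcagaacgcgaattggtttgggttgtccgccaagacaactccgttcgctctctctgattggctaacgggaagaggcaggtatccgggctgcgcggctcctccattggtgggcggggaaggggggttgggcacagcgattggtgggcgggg
Ciart: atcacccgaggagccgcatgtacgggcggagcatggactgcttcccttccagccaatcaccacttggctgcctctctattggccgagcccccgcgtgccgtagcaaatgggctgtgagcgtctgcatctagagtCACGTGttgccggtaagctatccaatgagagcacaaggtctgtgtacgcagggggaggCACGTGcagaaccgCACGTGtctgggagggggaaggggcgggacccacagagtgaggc
The matches of Arntl begin 200 and 181 bases before its start, and the E-boxes of Ciart 116, 58 and 44 bases before its start. Of the 32851 promoters of the table, 9.19% hold the loose ROR/REV-ERB letters and 6.02% an E-box in a stretch of this length. Below, a gene was counted if any of its promoters held the letters, whereas each percentage is of single promoters. Gene counts and percentages are therefore not directly comparable. In the window from 250 bases before to 50 after the start, E-boxes were found for 2 of the 7 called clock genes with an entry (Ciart and Bhlhe41) against 7.15% of all promoters. The loose ROR/REV-ERB letters were found for 1 (Arntl) against 11.0%, and D-boxes (TTANNTAA) for 0 against 6%. A cAMP response element (TGACGTCA), found in 1.79% of all promoters, was held by 1 of the 7, Hlf. A match is only a match of letters, and no binding was measured here.

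Metallothioneins are small cysteine-rich proteins whose genes are switched on by zinc through metal response elements. Of 3 metallothionein genes 2 rose, Mt2 as above and Mt1, which stood at 23, 29.8, 16.1 and 33.8 CPM in saline A to D and 55.6, 62.9 and 57.4 CPM in 8-day A to C and rose by 1.2 log2 units (SE 0.19, adjusted p = 0.00392). The lowest treated heart had 55.6 CPM of Mt1 and the highest saline heart 33.8 CPM. Mt3, the brain form, stood at 0.0635 to 0.275 CPM in saline and 0.0784 to 0.119 CPM at 8 days. Of 6 zinc exporters and 7 importers 0 were called by edgeR, DESeq2 or limma voom, with 1 exporter lower and 1 importer higher at an unadjusted p under 0.05 and medians of −0.08 and 0.11. Mt1 lost its call with robust dispersions. Their promoters are shown for a loose form of the core of the metal response element (TGCNCNC, either strand, in capitals). Both lie on the plus strand, Mt2 at chr8:94172368-94172617 and Mt1 at chr8:94178839-94179088 of GRCm38.p6, from the RefSeq table.
Mt2: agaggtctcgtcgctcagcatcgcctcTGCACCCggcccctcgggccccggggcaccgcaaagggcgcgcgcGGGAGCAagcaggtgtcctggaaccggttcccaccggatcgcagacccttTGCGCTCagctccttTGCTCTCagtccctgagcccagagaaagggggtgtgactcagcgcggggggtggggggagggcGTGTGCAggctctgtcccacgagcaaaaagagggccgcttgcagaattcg
Mt1: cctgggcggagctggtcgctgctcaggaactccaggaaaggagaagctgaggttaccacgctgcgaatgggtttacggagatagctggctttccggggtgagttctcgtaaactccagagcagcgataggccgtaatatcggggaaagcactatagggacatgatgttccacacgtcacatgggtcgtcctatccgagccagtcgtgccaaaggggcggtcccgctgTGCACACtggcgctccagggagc
The stretch of Mt2 holds 5 matches and that of Mt1 holds 1, which begins 23 bases before the start. Each printed stretch, here and for the clock genes, is that of the first entry of its gene. Matches outside it, past the start included, are not in these counts. The letters allow any base after TGC, where the usual core has A or G. The stretches GGGAGCA and TGCTCTC of Mt2 therefore match only the loose form. This loose, short form occurs in 44.4% of all stretches of this length. In the longer window all 3 metallothionein genes held it in a promoter, against 51.0% of all single promoters. So did 6 of the 7 called clock genes and 12 of the 20 called genes of fatty acid oxidation and PPAR targets with an entry. The DR1 element of PPAR receptors in its exact form (AGGTCANAGGTCA) was found in 0.0396% of all promoters and in 0 of those 20 genes.

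**Figure D4:**
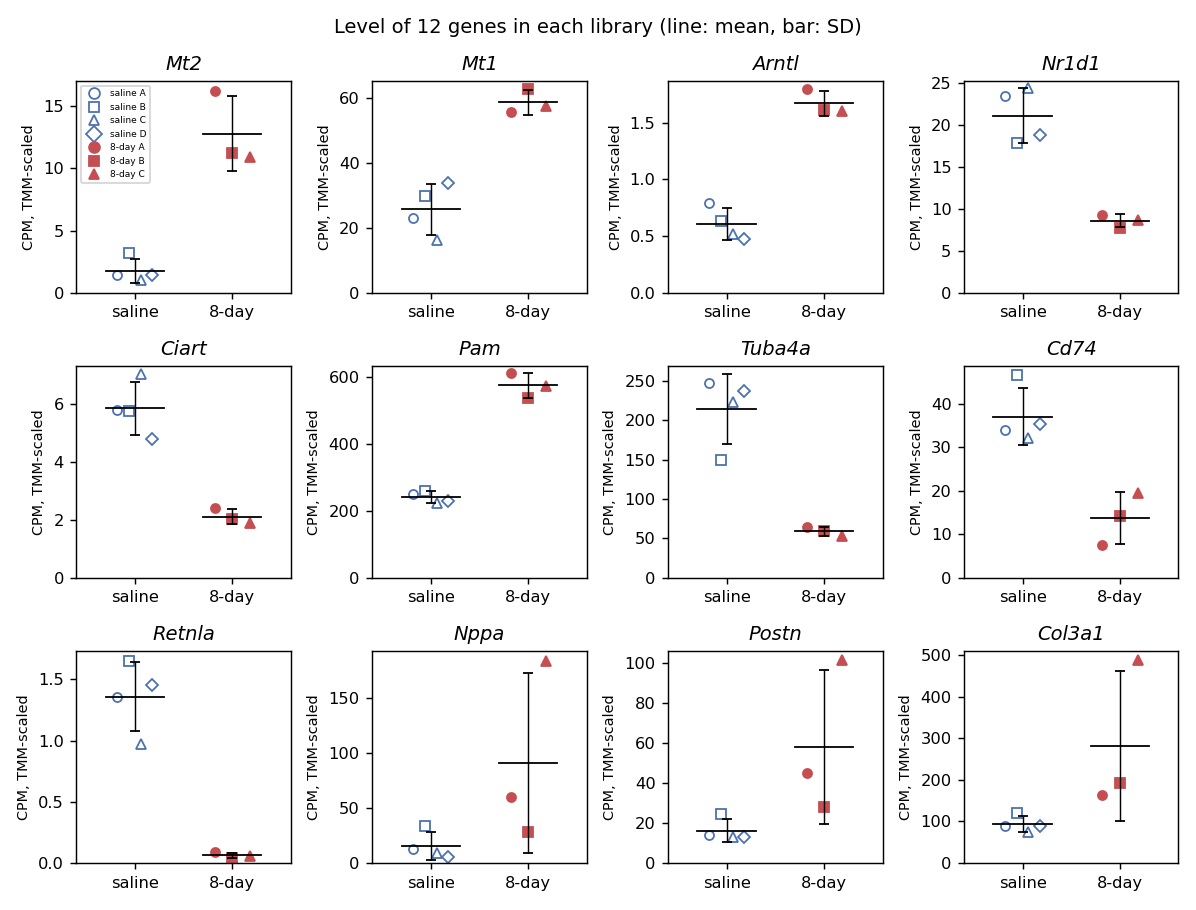
CPM of 12 genes in each saline and 8-day heart, with the mean (line) and SD (bar) of the 4 saline and 3 treated hearts. Mt2, Mt1, Arntl and Pam are higher in each treated heart and Nr1d1, Ciart, Tuba4a, Cd74 and Retnla lower. For Nppa, Postn and Col3a1 8-day C is far above 8-day A and B, and Nppa overlaps between the groups.

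In the signaling chain on which isoproterenol acts, 2 of 50 genes of β-adrenergic and cAMP signaling rose and 4 fell, with a median of 0.01. Over all genes tested 1.07% were higher and 1.20% lower, and of the 1264 tested genes of all lists together 90 were higher and 94 lower. Adrb1, the main β-adrenergic receptor of heart muscle, stood at 5.7, 5.8, 7.28 and 5.72 CPM in saline A to D and 4.4, 2.82 and 3.75 CPM in 8-day A to C, and it fell by 0.74 log2 units (SE 0.16, adjusted p = 0.0261). All treated hearts were below all saline hearts, but the call was lost without saline C (adjusted p = 0.0639), 8-day B (0.0985) or 8-day C (0.101). Rgs2, a brake on G protein signaling, fell by 1.18 log2 units (SE 0.20, adjusted p = 0.00608), from 9.02 to 18.4 to 5.4 to 5.8 CPM. Of the 6 adenylyl cyclases 0 were called by edgeR, DESeq2 or limma voom, with 1 higher at an unadjusted p under 0.05, and Adcy6, a main cyclase of heart muscle, stood at 0.28 (SE 0.11, adjusted p = 0.263). Of 13 phosphodiesterases, which degrade cyclic nucleotides, Pde1a and Pde5a rose by 0.75 and 0.55, and neither was called without saline A, saline C or any 8-day library (0.0551 to 0.114 for Pde1a and 0.0631 to 0.132 for Pde5a). Prkaca, the catalytic subunit of protein kinase A, was below saline in every treated heart, with a log2 fold change of −0.36 and an adjusted p of 0.0684. The immediate early genes, which respond to acute stimulation, held 2 lower and 0 higher genes of 31. Dusp1, a phosphatase of MAP kinases that also responds to glucocorticoids, stood at 18.8, 20.8, 16.8 and 18.4 CPM in saline A to D and 10.5, 9.17 and 10.7 CPM in 8-day A to C and fell by 0.88 log2 units (SE 0.11, adjusted p = 0.000856). Fos stood at −1.49, with 4 to 11 counts in a treated library, and lost its call without saline A (0.0866), saline D (0.0513) or any 8-day library (0.0825 to 0.117).

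Most called genes of calcium and ion handling were lower. Of 19 genes of calcium storage and release 3 fell and 0 rose. Atp2a2, the calcium pump SERCA of the sarcoplasmic reticulum and among the most abundant messages of the heart, stood at 5830, 5523, 5931 and 6262 CPM in saline A to D and 3423, 3711 and 3441 CPM in 8-day A to C, and it fell by 0.74 log2 units (SE 0.12, adjusted p = 0.00432). The histidine-rich calcium-binding protein Hrc fell by 0.63, with an adjusted p of 0.0578 without 8-day A and 0.0608 without 8-day C. Cacnb2, the β-subunit of the L-type calcium channel, fell by 0.59 log2 units (SE 0.094, adjusted p = 0.00462), whereas Cacna1h, a T-type channel of the developing heart, rose from 2.76 to 5.34 to 6.15 to 11.7 CPM with a log2 fold change of 1.26, an adjusted p of 0.00838 and one of 0.0529 without 8-day C. Of 33 potassium, sodium and pacemaker genes 6 fell and 0 rose (median −0.29), and 5 of them fell without 8-day A. Scn4b, a sodium channel β-subunit, stood at 28.6, 31.8, 19 and 16.1 CPM in saline A to D and 9.37, 10.9 and 6.75 CPM in 8-day A to C and fell by 1.41 log2 units (SE 0.22, adjusted p = 0.00432). Scn4a, the sodium channel of skeletal muscle, fell by 1.17 log2 units (SE 0.16, adjusted p = 0.00217). All treated hearts were below all saline hearts for both. The calls of Scn4b and Cacna1h were lost with robust dispersions. In the sarcomere list 4 of 29 genes fell, 3 of them of the thick filament, and 0 rose. Beside Mylk4, its relative Mylk3, the cardiac myosin light chain kinase, stood at 368, 360, 356 and 379 CPM in saline A to D and 238, 263 and 258 CPM in 8-day A to C and fell by 0.53 log2 units (SE 0.092, adjusted p = 0.00759). The calls of Hrc, Cacnb2 and Mylk3 were lost under library size alone.

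Genes that the heart uses before birth and again under load (the fetal and hypertrophic program) rose in 6 of 24 cases and fell in 0 (median 0.30). Ankrd1, a nuclear and sarcomeric stress protein, stood at 295, 422, 149 and 145 CPM in saline A to D and 1037, 1070 and 1188 CPM in 8-day A to C, and it rose by 2.12 log2 units (SE 0.29, adjusted p = 0.002). Fhl1, a LIM protein of the stretch sensor at the sarcomere, stood at 26.9, 29.1, 30.3 and 30.3 CPM in saline A to D and 80.8, 55.4 and 87 CPM in 8-day A to C and rose by 1.35 log2 units (SE 0.13, adjusted p = 0.000192). Sprr1a, a stress-induced small proline-rich protein, had 0 to 2 counts in a saline library and 10 to 30 in a treated library (adjusted p = 0.000856). These 3 were called in each fit that left out a library, and Ankrd1 lost its call with robust dispersions, as did Nppa and Acta1. Nppa, the atrial natriuretic peptide, stood at 12.9, 33.7, 9.07 and 5.21 CPM in saline A to D and 59.7, 28.3 and 183 CPM in 8-day A to C, so 8-day B lay below saline B. Its log2 fold change was 2.57 (SE 0.57, adjusted p = 0.0304), and the call was lost without 8-day C (0.221), saline A (0.0854), saline C (0.0644) or saline D (0.0527). Acta1, the skeletal α-actin, was at 29.4, 48.9, 8.49 and 7.14 CPM in saline A to D and 98.6, 66.5 and 109 CPM in 8-day A to C and only just passed, at an adjusted p of 0.05, and its adjusted p was 0.0579 to 0.168 in the 6 fits without saline A, C or D or an 8-day library. Myh7, the slow myosin heavy chain, stood at 88.6, 130, 76.1 and 46.7 CPM in saline A to D and 123, 97.1 and 270 CPM in 8-day A to C and was not called (0.94, SE 0.32, adjusted p = 0.189). Of the natriuretic peptide pathway, Pam, an enzyme of secretory granules that adds amide groups to peptides, stood at 252, 261, 223 and 230 CPM in saline A to D and 614, 538 and 574 CPM in 8-day A to C and rose by 1.25 log2 units (SE 0.099, adjusted p = 6.08e-05). Corin, the protease that activates the atrial peptide, fell by 0.61 log2 units (SE 0.10, adjusted p = 0.00689), with an adjusted p of 0.0501 without 8-day C. Ace, the angiotensin-converting enzyme, rose by 0.82 log2 units (SE 0.13, adjusted p = 0.00517).

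Genes of the extracellular matrix were called mainly as higher at 8 days, with 8-day C often above the other treated hearts. As whole lists, by the mean of log2(CPM + 1) relative to saline, most overlapped between groups. For collagens saline B lay at 0.3, above 8-day A (0.27) and 8-day B (0.26). For matricellular genes saline B lay at 0.28 and 8-day B at 0.09. Proteoglycan, elastic fibre and basement membrane lists overlapped too, and only proteases and inhibitors did not. Of 28 genes of collagens and their maturation 9 rose and 0 fell (median 0.55), of 27 matricellular and related proteins 5 rose, of 18 proteoglycan genes 4 rose and 1 fell, and of 25 matrix proteases and inhibitors 8 rose and 1 fell. Col3a1, the chain of type III collagen, stood at 88, 121, 75.1 and 87.8 CPM in saline A to D and 164, 192 and 489 CPM in 8-day A to C, and it rose by 1.6 log2 units (SE 0.29, adjusted p = 0.00916). Col1a1, a chain of type I collagen, stood at 32.4, 53.2, 31.7 and 35.1 CPM in saline A to D and 48.8, 66.1 and 164 CPM in 8-day A to C, so that saline B lay above 8-day A. Its adjusted p was 0.0458, and 0.229 without 8-day C, 0.12 without saline A, 0.093 without saline C and 0.0891 without saline D. Postn, the matricellular protein periostin of activated fibroblasts, stood at 14, 24.7, 13 and 13.2 CPM in saline A to D and 45, 28 and 102 CPM in 8-day A to C and rose by 1.85 log2 units (SE 0.33, adjusted p = 0.00912). Saline B was the highest saline heart for these 3 genes, and all 3 lost their call with robust dispersions. Lum and Bgn, small proteoglycans that bind collagen fibrils, did not rest on 8-day C: Lum stood at 17.6, 18.2, 15.7 and 17.9 CPM in saline A to D and 37.3, 28.9 and 47.7 CPM in 8-day A to C, and Bgn rose by 1.11 log2 units (SE 0.14, adjusted p = 0.0013). Mmp2, a gelatinase, stood at 18.5, 24.1, 18 and 21.5 CPM in saline A to D and 42.6, 36.4 and 63.3 CPM in 8-day A to C and rose by 1.21 log2 units (SE 0.16, adjusted p = 0.00171). Ltbp2, a binding protein of elastic microfibrils, was at 1.17, 2.94, 0.928 and 1.02 CPM in saline A to D and 4.2, 4.11 and 13.7 CPM in 8-day A to C, with an adjusted p of 0.0117, and 0.0762 without 8-day C. Cilp, a matrix protein induced by TGF-β, was at 2.5, 6.98, 2.63 and 2.68 CPM in saline A to D and 12.7, 8.07 and 28 CPM in 8-day A to C, with an adjusted p of 0.00895, and 0.0556 without 8-day C. Neither Ltbp2 nor Cilp was called with robust dispersions. Fn1, the gene of fibronectin, stood at 21.1, 39.1, 25.8 and 24.6 CPM in saline A to D and 41.9, 33.4 and 56.2 CPM in 8-day A to C and was not called (0.67, SE 0.19, adjusted p = 0.109), nor was Col15a1, a collagen of basement membranes (0.04, adjusted p = 0.97). Without 8-day C 2 collagen list genes, 3 matricellular genes and 3 matrix proteases or inhibitors were called higher, and with robust dispersions 3, 2 and 7 were.

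The fibroblast marker lists share many genes with the matrix lists. The 10 markers of fibroblasts summed to 931 to 1435 CPM at 8 days against 686 to 838 CPM in saline, and the 10 markers of activated fibroblasts to 92.6 to 180 CPM against 41.6 to 71.5 CPM. Of the 20 markers 8 were called higher. Of these Col1a1, Col3a1, Lum, Postn, Cilp, Ltbp2 and Thbs4 also stand in the matrix lists, and only Pi16 does not. Tcf21, Dcn and Dpt were not called (0.35, 0.29 and 0.15 in log2 units). Nor were Pdgfra, Gsn, Fap, Acta2 and Meox1 (0.43, 0.06, 0.34, 0.20 and −0.03), which stand in no matrix list. Among the 20 markers Cthrc1 was near 0 in each library, and the part of fibroblast number in the matrix values was not tested. Of 40 genes of TGF-β and BMP signaling 1 rose and 1 fell: the pseudoreceptor Bambi, which blunts TGF-β signaling, stood at 3.79, 3.71, 3.7 and 3.9 CPM in saline A to D and 7.91, 9.44 and 10.1 CPM in 8-day A to C, and the receptor Bmpr1a had a log2 fold change of −0.53, with adjusted p of 0.0864 and 0.0852 without 8-day B and C. Of 13 ligands of these families 0 were called by edgeR, 1 by DESeq2 and 4 at an unadjusted p under 0.05. Sfrp2, a secreted Wnt modulator of fibroblasts, rose by 1.85 log2 units (SE 0.29, adjusted p = 0.00451), with 12 to 44 counts per saline heart and 27 to 75 per treated heart. In the growth factor list 3 of 9 IGF genes rose: Igf1 stood at 6.91, 9.07, 7.48 and 8.56 CPM in saline A to D and 12.8, 11.8 and 12.8 CPM in 8-day A to C, and the binding protein Igfbp5 rose by 0.65 log2 units (SE 0.10, adjusted p = 0.00424). Fgf1 and Angpt1, an angiopoietin that stabilises vessels, had log2 fold changes of −0.66 and −1.02 (adjusted p = 0.00462 and 0.00534) and were below every saline heart in each treated heart. The calls of Igf1, Igfbp5 and Bmpr1a were lost under library size alone.

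**Figure D5:**
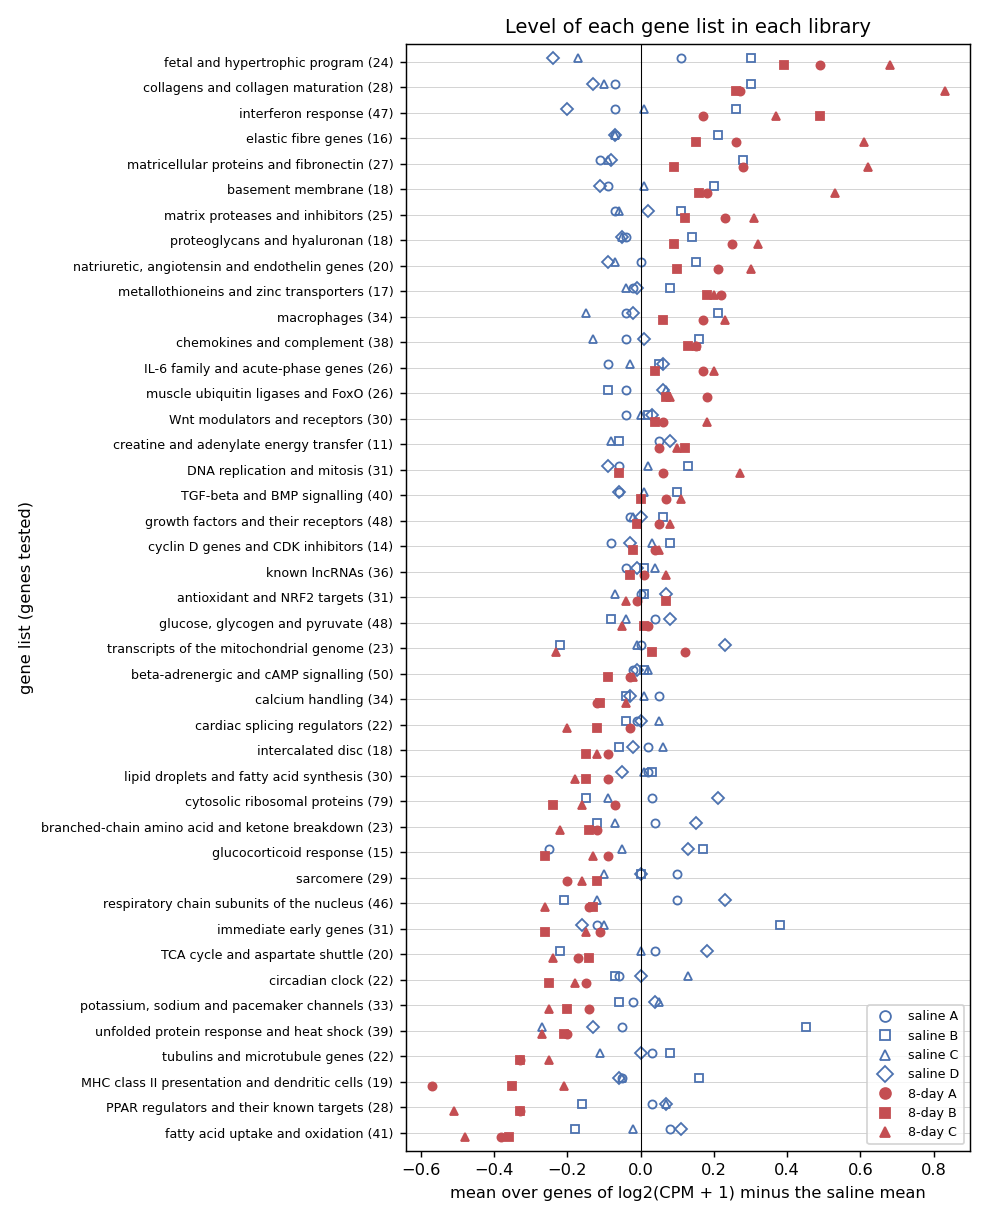
Level of each of the 43 gene lists in each library, as the mean over its tested genes of log2(CPM + 1) minus the mean of the 4 saline hearts, ordered by the 8-day mean. Fatty acid oxidation, PPAR targets and tubulins lie below 0 in each treated heart. In the matrix lists 8-day C is the highest heart and saline B the highest saline heart.

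Called genes of class II antigen presentation were lower, and those of the interferon response were higher. MHC class II molecules present peptides on dendritic cells, macrophages and B cells, and 4 of their 12 genes fell, with a median of −0.96. Cd74, the invariant chain that guides class II molecules, stood at 34.1, 46.7, 32.2 and 35.3 CPM in saline A to D and 7.43, 14.2 and 19.4 CPM in 8-day A to C, and it fell by 1.44 log2 units (SE 0.24, adjusted p = 0.00563). H2-Aa, a class II α-chain, stood at 16.1, 19.4, 16.6 and 18.7 CPM in saline A to D and 4.54, 6.93 and 8.45 CPM in 8-day A to C and fell by 1.41 log2 units (SE 0.17, adjusted p = 0.000666). H2-Eb1 and H2-Ab1, the β-chains, fell by 1.46 and 1.36, the latter with an adjusted p of 0.0504 without 8-day B. In each of these genes 8-day A was the lowest heart, and the 4 calls were also made without it. With robust dispersions only H2-Aa of these 4 kept its call. Ciita, the factor that switches on class II genes, was not called (−0.74, adjusted p = 0.199), nor were the 7 dendritic cell genes by edgeR, DESeq2 or limma voom, of which 1 was lower at an unadjusted p under 0.05 (median −0.55). Of the 10 lymphocyte markers, which include B cells, 9 had a negative log2 fold change (median −0.76). The B cell genes Cd79a and Ms4a1 and the T cell gene Cd4 were below every saline heart in each treated heart, with log2 fold changes of −1.44, −0.7 and −0.51, and did not pass the threshold (adjusted p = 0.278, 0.364 and 0.614). The list summed to 3.43 to 5.83 CPM at 8 days and 4.06 to 5.46 CPM in saline, most of it from Ighm, the heavy chain of IgM, at 2.26 to 4.22 and 2.09 to 3.15 CPM. Macrophage markers summed to 148 to 210 CPM at 8 days and 101 to 162 CPM in saline. The part of these cells in the class II values was not tested.

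Of 47 interferon response genes 6 rose and 0 fell, 44 had a positive log2 fold change and the median was 0.40. The level of the whole list, as the mean of log2(CPM + 1) relative to saline, overlapped between groups. Saline B lay at 0.26, above 8-day A at 0.17. Ifit3b, an antiviral tetratricopeptide protein that shares most of its sequence with Ifit3, stood at 1.86, 1.87, 1.97 and 1.97 CPM in saline A to D and 3.54, 4.58 and 4.4 CPM in 8-day A to C and rose by 1.12 log2 units (SE 0.15, adjusted p = 0.00167). Gbp6, a guanylate-binding protein, rose by 0.9 log2 units (SE 0.16, adjusted p = 0.00838), from 8.79 to 15.8 to 20.6 to 21.5 CPM. Counts of this list ran from 2 without saline A or without 8-day B to 16 without saline B, and stood at 10 without 8-day A. Among macrophage genes Retnla, a secreted marker of alternatively activated macrophages, had 37 to 123 counts in a saline library and 1 to 3 in a treated library, that is 0.976 to 1.65 and 0.0392 to 0.0857 CPM (adjusted p = 0.000134). It was called in each fit that left out a library. Of the genes of recruited and scavenger macrophages 3 of 15 rose (median 0.94), Gpnmb among them with 0.381 to 0.687 CPM in saline and 1.1 to 1.55 CPM at 8 days, and an adjusted p of 0.0225 that became 0.0723 without 8-day A, 0.131 without 8-day C, 0.0588 without saline A and 0.0543 without saline C. Complement genes rose in 3 of 16 cases. C1s1, a protease of the first complement component, stood at 10.5, 11.4, 9.57 and 14.5 CPM in saline A to D and 18, 17.4 and 18.2 CPM in 8-day A to C and rose by 0.65 log2 units (SE 0.13, adjusted p = 0.0151), with an adjusted p of 0.0536 without 8-day A, 0.0705 without 8-day C, 0.0521 without saline A and 0.29 under library size alone. Of 22 chemokine genes 1 rose, the scavenging receptor Ackr3, which rose by 0.8 log2 units (SE 0.13, adjusted p = 0.00432) and lost its call under library size alone.

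Genes of protein turnover and redox defense changed in small steps. In the list of muscle ubiquitin ligases, autophagy and FoxO genes 6 of 26 rose and 1 fell. Sqstm1, the autophagy receptor p62, stood at 110, 115, 116 and 114 CPM in saline A to D and 185, 192 and 184 CPM in 8-day A to C, and it rose by 0.72 log2 units (SE 0.084, adjusted p = 0.000654). Fbxo32, the ligase atrogin that is induced in muscle wasting, rose by 0.59 log2 units (SE 0.097, adjusted p = 0.00538), Gabarapl1, an autophagosome protein, rose by 0.7 log2 units (SE 0.10, adjusted p = 0.00316), and Klhl40, which stabilises thin filament proteins, rose by 0.85 log2 units (SE 0.12, adjusted p = 0.00252). All 4 were above every saline heart in each treated heart, and all lost their call under library size alone. Gpx3 and Gpx1, glutathione peroxidases, rose by 0.71 and 0.55, and Gstm2, a glutathione transferase, fell by 0.85 (adjusted p = 0.00432, 0.00842 and 0.00357), in a list of 31 NRF2 targets and antioxidant genes whose median was −0.03. Both peroxidases lost their call under library size alone.

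Other lists held 1 to 4 calls each. Of 16 elastic fibre genes 3 rose, of which Mfap4, a glycoprotein of microfibrils, stood at 1.63, 3.16, 1.22 and 1.58 CPM in saline A to D and 5.11, 4.7 and 7.47 CPM in 8-day A to C and rose by 1.65 log2 units (SE 0.27, adjusted p = 0.00533), although not with robust dispersions. Of 18 basement membrane genes 3 rose, of which Lama5, the laminin α5 chain, rose by 0.73 log2 units (SE 0.10, adjusted p = 0.00255) and lost its call under library size alone. Of 18 intercalated disc genes 2 fell and of 20 genes of the citric acid cycle and aspartate shuttle 1 fell, and none of these 3 calls was made in each fit that left out a library. Of 23 genes that break down branched-chain amino acids and ketone bodies 3 fell, beside the rise of Bdh1, and 1 was called lower without 8-day A and 0 by edgeR without 8-day B, 8-day C, saline A or saline D. Of 26 IL-6 family and acute-phase genes 3 rose, Serpina3n among them, and Cp, the ferroxidase ceruloplasmin, fell by 0.56 log2 units (SE 0.097, adjusted p = 0.00771) but not under library size alone.

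Cell division, ribosomal and splicing genes showed few calls. Of 31 genes of DNA replication and mitosis 26 had a positive fold change, 0 were called higher by edgeR, DESeq2 or limma voom (7 at an unadjusted p under 0.05) and 1 fell. Cenpf, a large protein of kinetochores and microtubules, stood at 38.1, 37.9, 51.3 and 86.6 CPM in saline A to D and 14.3, 9.25 and 15 CPM in 8-day A to C, and it fell by 2.05 log2 units (SE 0.27, adjusted p = 0.00132). Of 79 cytosolic ribosomal protein genes 0 were called by edgeR, 3 were lower by DESeq2, 2 by limma voom and 16 at an unadjusted p under 0.05 (median −0.18). Of 14 cyclin D and CDK inhibitor genes 0 were called by edgeR and DESeq2, 1 was higher by limma voom and 3 at an unadjusted p under 0.05. Of 22 cardiac splicing regulators 1 fell, Srsf2, with −0.48 in log2 units and adjusted p of 0.0652 and 0.0796 without 8-day A and C.

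Among 4542 lncRNAs tested, 16 were higher and 29 lower. Both shares were smaller than those over all genes tested, 1.07% higher and 1.20% lower. Gm36827, a lncRNA on chromosome 10, stood at 11.9, 12.3, 10.9 and 13.9 CPM in saline A to D and 2.83, 5.01 and 2.44 CPM in 8-day A to C and fell by 1.85 log2 units (SE 0.20, adjusted p = 0.000326). 2010001K21Rik stood at 1.12, 0.825, 1.25 and 0.986 CPM in saline A to D and 0.2, 0.0784 and 0.119 CPM in 8-day A to C, on 2 to 7 counts in a treated library, and had an adjusted p of 0.000863. Gm49891, Gm28979 and Gm10635 were also lower, with log2 fold changes of −2, −2.19 and −3.03, and Gm10635 was not called with robust dispersions. Plet1os, which lies antisense to Plet1, stood at 3.94, 2.34, 2.61 and 3.19 CPM in saline A to D and 6.94, 7.09 and 6.07 CPM in 8-day A to C and rose by 1.15 log2 units (SE 0.17, adjusted p = 0.00302), and without a stated strand setting its reads cannot be told from those of its partner. Gm15743 rose by 1.65 (adjusted p = 0.00758). Of 36 lncRNAs with known roles 1 rose, Dnm3os, a host of microRNAs that lies antisense to Dnm3, with 0.75 in log2 units, an adjusted p of 0.0268 and one of 0.0897 without 8-day A, 0.13 without 8-day C, 0.0822 without saline A and 0.0579 without saline D. Lockd, which lies next to Cdkn1b, stood at 0.1 (adjusted p = 0.922).

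Against the other treated groups, few genes differed at 8 days. Compared with 4 days (n = 4), 16 genes were higher and 51 lower at 8 days, 0.249% of the genes tested in either direction, and 46 of the 51 had no call against saline. The log2 fold change of 8 over 4 days was −2.74 for Postn (SE 0.48, adjusted p = 0.0424) and −1.27 for Serpina3n (SE 0.23, adjusted p = 0.0424), although both were above saline at 8 days. Compared with 11 days (n = 4), 21 genes were higher and 16 lower (0.138% in either direction). Of the 21 higher genes, 6 belonged to the list of DNA replication and mitosis. Mki67, the proliferation antigen, was 2.26 higher at 8 than at 11 days (SE 0.26, adjusted p = 0.00464), while against saline it stood at 0.59 with an adjusted p of 0.328. Dbp was 0.74 higher at 8 than at 11 days (SE 0.081, adjusted p = 0.00387). Mki67 and Dbp were chosen after their values were seen, because they, with the processed pseudogene Gm48113, were the only genes of these comparisons called in each fit that left out a library. The 3 comparisons share the 8-day libraries, and the counts against 4 and 11 days changed with the settings over a wide range, from 0 to 714 and from 1 to 312 genes.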

How the data were processed

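Total RNA of mouse hearts was sequenced, and the expected counts per gene, which the authors had made with RSEM after cutadapt and HISAT2 on GRCm38.p6 (per the submitters' processing notes), were taken as deposited for the 15 libraries. The deposited values are estimated counts, not normalized, and were rounded to whole numbers. The versions named are cutadapt 4.1, HISAT2 2.2.1 and RSEM 1.3.3, and the strand setting is not given in the sources used here. Depth was 25404075 to 117776929 counts per library in the 2 groups.

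Groups were taken from the labels. Genes with a count sum of at least 10 were tested with edgeR 4.0.16 (R 4.3.3, quasi-likelihood, TMM, Benjamini-Hochberg threshold 0.05) on the 8-day and saline libraries, and 8-day was fitted likewise against 4-day and 11-day. DESeq2 1.42.0, limma 3.58.1, other filters, scalings, dispersions, length offsets and the omission of each library were alternatives, and the fit was tested on simulated data. Promoters came from a RefSeq table on GRCm38.p6. Named genes were the 15 highest and 15 lowest called genes of at least 5 CPM without overlap, up to 4 called genes per list, or the one with the smallest p, the 5 highest and 5 lowest called lncRNAs of at least 1 CPM, and the genes the study names. Other genes named were chosen after their values were seen. The members and lists were chosen with earlier results of these data known. A few genes are not reported here. The stretch of 250 bases before the start was added as a promoter window after the data were seen.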

Additional observations from a re-analysis of the deposited data

Results flagged for a closer look

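Saline B lay far above the other saline hearts in matrix genes, with 24.7 CPM of Postn, 53.2 CPM of Col1a1, 6.98 CPM of Cilp and 2.94 CPM of Ltbp2. Its levels of whole lists, as mean log2(CPM + 1) relative to saline, were likewise apart from the other saline hearts for collagens (0.3), matricellular proteins (0.28), proteoglycans (0.14), elastic fibre genes (0.21), class II and dendritic genes (0.16) and immediate early genes (0.38). It also stood apart in H2-Eb1 (16.2 CPM, above the others) and Agpat3 (57.7 CPM). Saline C stood apart in Gm49891 (2.29 CPM), Cacnb2 (55.3 CPM), Adrb1 (7.28 CPM) and Cfb (0.389 CPM), and saline D in Pde1a (4.14 CPM). By Dixon's criterion, which flags about 1 group in 20 by chance, 17 of 213 groups of 4 saline values were marked.

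Several named genes differed between treatment times. Against 4 days, on the log2 scale, Fn1 (−1.94), Postn (−2.74), Serpina3n (−1.27) and Pdia6 (−0.65) were lower at 8 days. Against 11 days, Ace (0.54), Acta1 (1.39), Dbp (0.74), Fhl1 (0.82), Gm48113 (1.86) and Mki67 (2.26) were higher at 8 days, and Gm13835 (−1.56), Gstm2 (−0.54), Rps27a (−0.45) and Tuba4a (−0.66) were lower. The adjusted p of each is under 0.05 by edgeR, and Dbp, Gm48113 and Mki67 were the ones called in each fit that left out a library.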

How the results depend on the processing

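The test as reported gave 288 higher and 322 lower genes against saline. Higher and lower counts were 473 and 491 with all libraries in 1 fit, 459 and 541 by DESeq2 without length offsets, 154 and 201 with effective lengths as offsets, 102 and 133 at an adjusted p under 0.01, and 105 and 90 at a change of at least 2-fold. Library size alone gave 167 higher genes and no filter on low counts 447, with 281 and 472 lower. Leaving out 1 library gave 127 to 429 higher and 131 to 483 lower genes, the fewest without 8-day C and the most without saline B. The cause of these shifts was not tested. With the replicate letter as a block there were 327 and 356, but the letters did not pair the libraries: the deviations of same-letter libraries from their group means correlated at −0.007, −0.007 and −0.162.

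The 67 genes that differed from 4 days became 530 under library size alone, 3 with edgeR's own expression filter, 273 with all libraries in 1 fit, 539 by DESeq2, 412 with the replicate block, and 0 (without 4-day D) to 714 (without 4-day B) when 1 library was left out. The 37 that differed from 11 days became 82, 4, 1, 312 and 212 under the same settings, and 3 to 114 when 1 library was left out.

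The log2 fold change of Lars2 ran from −0.32 without 8-day A, which reversed it, to 8.29 without 8-day C. Of 144 named genes past the threshold 93 were called in every fit that left out a library, and 48 calls were lost under library size alone, 36 with length offsets, 30 with robust dispersions, 9 with the replicate block, 3 by DESeq2 and 16 by DESeq2 with length offsets, which called 370 higher and 400 lower genes in all. Of 2951 values of named genes under the alternatives 2595 kept direction and side of the threshold, 334 no longer passed it, 21 newly passed it and 1 reversed. With 3 treated hearts, of 25404075 to 46582810 counts, genes of few counts are the least certain.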
